A study of Mus musculus with 2 samples.

Results

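Of the 37178 records in the expression and allelic count table of F123 mouse embryonic stem cells (mESCs), 166 were protein-coding genes whose transcript spanned at least 200 kb of the genome. A record is 1 gene with 1 transcript biotype and carries the isoform that was kept for it. The members were chosen by their biotype, by their span, by a TPM over the whole transcript of at least 1 and by at least 20 allelic reads in all, and 6 genes were left out by name (Camk1d, Sfmbt2, Kif16b, Kcnq1, Slc10a7 and Map2k5). Of 792 coding records of that span, 619 were under a TPM of 1, and 1 of the remaining 173, Sgms1, had no allelic reads. The rule used the level and the sum of both alleles, so levels are given as a description, while the split of the reads between the alleles was not used. The members lay on 19 autosomes.

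F123 is a male F1 hybrid line from a cross of S129/Jae and Cast mice, in which the father was CAST and the mother S129. Each base that differs between the strains therefore marks the paternal (CAST) or maternal (S129) copy. Both samples formed 1 group, for which the labels name no treatment or engineered change. The cells were kept on feeder fibroblasts with LIF, moved to gelatin for 2 or more passages to remove the feeders and harvested after about 48 h. Total RNA from 2 biological replicates was sequenced as stranded paired-end reads. The deposited table holds 1 column per allele and names no replicate, and it was taken as both replicates pooled. No spread between replicates could therefore be computed, and all intervals and p-values cover counting error only. They take allelic counts as independent, although a read over several variants is counted at each. The intervals and p-values of the allelic shares are thus too small where reads were counted repeatedly. All 10 pluripotency markers were expressed, from 12.1 TPM for Tfcp2l1 to 381 TPM for Dppa5a, while 3 of 8 fibroblast markers reached a TPM of 1 and the highest, Twist1, was at 3.41. The 4 primitive endoderm markers (Gata4, Gata6, Pdgfra and Sox17) lay between 3.81 and 21.4 TPM. The neural markers Sox1 and Pax6 were at 10.3 and 2.44 TPM, and the trophoblast markers Eomes and Cdx2 at 2.65 and 0.029 TPM. The part of other cell types in the values below was not tested.

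Most of the length of a long mammalian gene is intron. RNA polymerase II copies exons and introns alike, the spliceosome removes the introns from the nascent transcript, often before its 3′ end is made, and spliced mRNA then accumulates. Total RNA, from which ribosomal RNA but not unspliced RNA is removed, holds both kinds of molecule, so reads from such genes fall into exons and introns. Many long genes encode cell adhesion, cytoskeletal and synaptic proteins, and several are known from common fragile sites, where replication is slow to finish.

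The starts of 75 of the 166 members lay within 100 bases of a RefSeq promoter window (build GRCm38.p6, 250 bases before to 50 after the start, matched by symbol). The median window of these members held 27 CpG dinucleotides and 66.3% G or C, against 22 CpG and 61.7% over 6470 expressed coding records matched in the same way and 7 CpG over all 32851 windows. The GC box letters GGGCGG, searched on both strands, were in 74.7% of the member windows, 69.2% of the windows of expressed coding records and 35.7% of all windows. The letters CCAAT were in 37.3%, 40.6% and 37.4%, and TATAAA in 4%, 6.07% and 13.6%. The windows of 3 members are shown with CpG in capitals, because their genes had the largest share of reads on either allele among matched members with an allele-specific call and 100 or more allelic reads (Gphn and Ncoa1), or the fewest CpG among matched members with a call (Baz2b). They lie at chr12:78226405-78226704 on the plus strand, chr12:4477133-4477432 on the minus strand and chr2:60125691-60125990 on the minus strand.
Gphn: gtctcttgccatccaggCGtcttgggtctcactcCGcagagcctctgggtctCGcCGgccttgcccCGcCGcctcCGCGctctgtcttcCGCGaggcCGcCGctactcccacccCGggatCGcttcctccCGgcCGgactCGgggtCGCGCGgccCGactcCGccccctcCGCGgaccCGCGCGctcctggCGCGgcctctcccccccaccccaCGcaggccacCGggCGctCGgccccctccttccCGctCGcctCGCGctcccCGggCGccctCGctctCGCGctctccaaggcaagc
Ncoa1: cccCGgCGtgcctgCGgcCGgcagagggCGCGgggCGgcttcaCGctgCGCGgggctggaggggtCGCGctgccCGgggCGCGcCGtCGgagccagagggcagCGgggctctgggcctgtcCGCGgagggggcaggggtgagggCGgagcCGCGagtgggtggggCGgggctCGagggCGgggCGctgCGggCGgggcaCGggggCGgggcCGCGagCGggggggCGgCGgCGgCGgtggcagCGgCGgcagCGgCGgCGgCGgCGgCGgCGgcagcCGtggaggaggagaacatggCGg
Baz2b: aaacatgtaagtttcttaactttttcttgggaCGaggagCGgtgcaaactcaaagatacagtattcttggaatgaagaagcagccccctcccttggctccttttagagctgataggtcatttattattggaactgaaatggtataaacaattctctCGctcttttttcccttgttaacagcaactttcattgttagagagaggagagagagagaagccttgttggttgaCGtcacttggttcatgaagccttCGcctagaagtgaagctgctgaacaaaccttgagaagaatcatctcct
The Gphn and Ncoa1 windows held 42 and 49 CpG, and the Baz2b window held 5. The allelic table does not place its variants, so whether the strains differ within these windows is not known from it.

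The members spanned 263 kb in the median, with quartiles of 224 and 345 kb, and 108 of them were under 300 kb. Their TPM over the transcript was low, with a median of 1.69 and only 7 members at 5 or more. Both deposited TPM columns, multiplied by the span, were whole multiples of a fixed constant in 100% of records, within 0.001 of a read. Reads were thus recovered from both columns, and both had been divided by the whole span with introns. At this scale a TPM of 1 stood for 2147 reads over 200 kb and for 21.5 reads over 2 kb. The members held 2262 to 148254 reads each, with a median of 5362, and together 4.57% of the reads of all coding records.

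The first question was how these reads were divided between exons and introns. In the median member 34.2% of the reads fell into exons, with quartiles of 22.9% and 45.5%, and the deposited ratio of TPM over exons to TPM over the transcript was 0.417. The ratio exceeds the share because the constants of both columns differ by 1.22 times. Exonic reads were the minority in 137 of the 166 members. In coding records held to the same level and read minimum, the median share was 89.6% under 10 kb, 75.5% from 10 to 30 kb, 66.2% from 30 to 100 kb and 52.2% from 100 to 200 kb. In 177 coding records more reads were recovered for exons than for the transcript. Of 826 expressed single-exon records, 548 were at 100%. Both counts are therefore not strictly part and whole, and the shares are approximate. The fall continued inside the group, from 41.4% in 72 members under 250 kb to 35.4% in 53 members of 250 to 350 kb, 27.3% in 22 members of 350 to 500 kb and 16% in 19 longer members. These 19 include the 5 members that run across more than 20 other expressed genes, with 1.14% to 4.55% exonic reads. They lower the value of this last class. Across the 166 members span and exonic share had a Spearman rho of -0.36. Across the 101 members with no other expressed gene in their span, rho was -0.34. Both describe genes, from values not split by replicate.

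**Figure D1:**
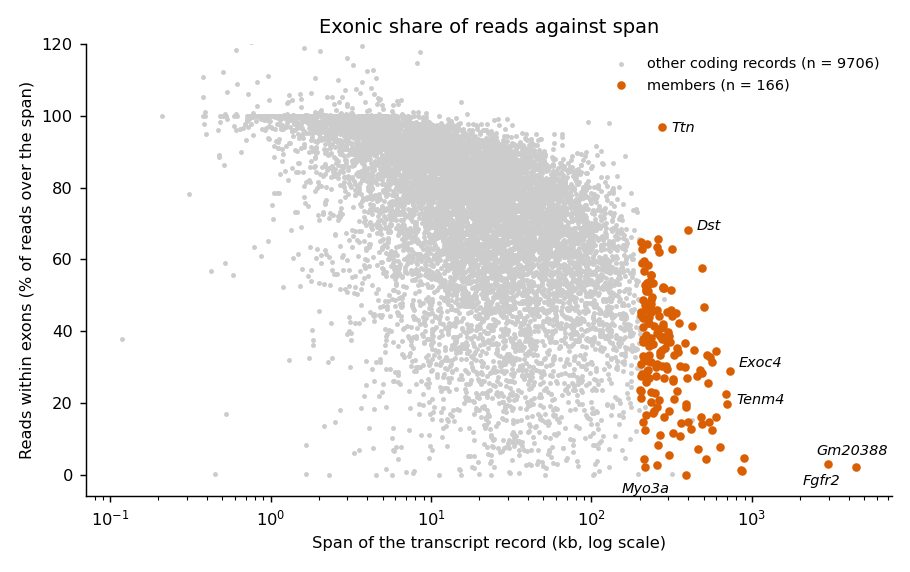
Each point is 1 coding record with a TPM of at least 1 and at least 20 allelic reads, placed by its span (kb, log scale) and by the percent of its reads within exons; orange points are the 166 members and gray points the other 9706 records, of which those above 120% lie outside the axis. The members' median is 34.2%, with Ttn at 96.9% and Myo3a near 0.

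Exons made up only 1.69% of the span in the median of the 163 members whose record matched a GENCODE M21 transcript model. Per kb, exons carried 334 reads and introns 11.3 reads in the median, and the median of the members' own exon-to-intron ratios was 27.8. The same ratio was 28.6 in 100 to 200 kb genes, 25.2 in 30 to 100 kb genes and 18 in genes under 10 kb. So the exonic share fell with span while reads per kb of exon exceeded reads per kb of intron by a similar factor in the classes above 30 kb. Exons were denser in 162 of the 163 members and more than 10 times denser in 157.

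**Figure D2:**
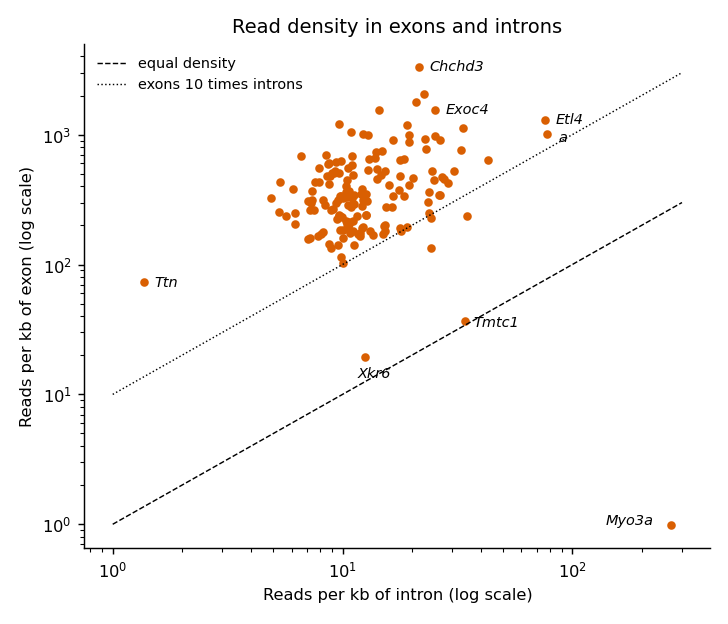
Reads per kb of exon against reads per kb of intron for the 163 members with a matched transcript model, both on log axes; each point is 1 member, with a dashed line at equal density and a dotted line at 10 times more reads per kb of exon. Only Myo3a lies below the dashed line, Tmtc1 and Xkr6 lie near it, and Chchd3 has the highest exon density.

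The 5 highest exon-to-transcript TPM ratios ranged from 0.78 to 1.18. Titin (Ttn), the giant sarcomere protein, had a ratio of 1.18, with 7369 of its 7608 reads in exons, and exons made up 36.5% of its 275 kb. Its exons carried 73.4 reads per kb, below the members' lower quartile of 213, and its introns only 1.37 reads per kb, the lowest of all members with a model. Dystonin (Dst), a linker of cytoskeletal filaments, had a ratio of 0.83 and 14947 exonic reads, the most of any member. Ascc3, a helicase of the alkylation repair complex, Prkdc, the catalytic subunit of the DNA-dependent protein kinase, and Clasp1, a microtubule plus-end protein, followed with ratios of 0.80, 0.79 and 0.78. Their exonic shares were 65.8%, 64.7% and 64.2%. Per kb, the largest contrast was in Chchd3, a protein of the mitochondrial inner membrane, where exons carried 3323 and introns 21.5 reads per kb. This gene was named after its values were seen.

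At the other end, 14 members had fewer than 10% of their reads in exons. Myo3a, an unconventional myosin of hair cells, stood apart from all others. It had the highest TPM of the members, 24.6, from 103171 reads, of which only 5 lay in exons, and its exon-to-transcript ratio was 5.9e-05. Its introns carried 267 reads per kb. All 50 of its variants were intronic, and they held 295934 allelic counts, which is 5919 per variant against a median of 19.4 and 34.1% of the allelic counts of all members. GENCODE places 4 pseudogenes inside its span, and 3 of them matched when compared with mitochondrial and ribosomal protein transcripts. These are the unprocessed pseudogenes Gm13341, Gm13340 and Gm13339 in its introns, between 22587291 and 22590533 on chromosome 2. They matched mt-Co2, mt-Co1 and mt-Nd2 with 95.9%, 97.6% and 96.7% identity. No match was obtained for the remaining pseudogene. Gm13340 aligned to mt-Co1 over its whole length of 1545 bases with 37 mismatches, and the longest run without a difference was 148 bases, longer than a sequencing read. The first 150 bases of both are shown because they make the likeness visible, with the 3 differing bases in capitals. The pseudogene stretch lies at chr2:22589498-22589647 on the minus strand, while Myo3a is on the plus strand.
Gm13340: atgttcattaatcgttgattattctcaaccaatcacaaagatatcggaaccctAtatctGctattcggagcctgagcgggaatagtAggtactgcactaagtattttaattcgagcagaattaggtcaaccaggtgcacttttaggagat
mt-Co1: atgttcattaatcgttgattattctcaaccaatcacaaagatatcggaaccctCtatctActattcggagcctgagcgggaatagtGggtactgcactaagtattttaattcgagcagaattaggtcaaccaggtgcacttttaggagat
The table does not give the position of a read within the introns, so the part of these copies in the Myo3a reads was not tested. Its CAST share was 42.5%, with 125821 CAST and 170113 S129 counts, and it did not reach the 2-fold minimum.

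Other low shares came from records that run across many genes. Gm20388, the longest record at 4435 kb on chromosome 8, ran across 73 other expressed genes, and 2988 of its 148254 reads (2.02%) were in its own exons. The kept isoform of Fgfr2, a receptor for fibroblast growth factors, spanned 2961 kb and 22 other expressed genes, with 3.04% of its reads in exons. Gm37013, Gm37388 and Gm42416 cover 1 region of chromosome 18 with 31 other expressed genes. They had identical counts of 6972 CAST and 4355 S129 reads at the same number of 232 intron variants, so they are not independent members. The agouti gene (a), a melanocortin receptor antagonist, had a TPM of 7.41 with 2.59% exonic reads, and Raly and Eif2s2 were expressed across its span. In all, 65 of the 166 members shared bases with another expressed gene and 19 with an expressed coding gene. The median exonic share was 30.2% in these 65 and 37% in the other 101, a difference that was not tested.

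A low exonic share also occurred where no other record with a TPM of at least 1 lay in the span. Gphn (7.03%), Rad51b (4.34%), Tmtc1 (4.24%) and Frmd5 (8.11%) had no such record in their spans. GENCODE places 2 pseudogenes each inside Gphn, Tmtc1 and Frmd5 and 0 inside Rad51b. In Tmtc1 they include Rps4l, a transcribed processed pseudogene on the opposite strand. The part of these pseudogenes in the reads was not tested. Rad51b had 316 exonic reads of 7284 over 517 kb, yet its exons carried 170 and its introns 13.5 reads per kb. Tmtc1 differed from it, with 36.6 reads per kb of exon and 34 per kb of intron. Xkr6, an XK-related membrane protein whose span holds 1 other expressed gene (Gm15918), had 2.15% exonic reads and densities of 19.6 and 12.5 reads per kb. Of the members with a transcript model, only Tmtc1, Xkr6 and Myo3a had exons less than 5 times as dense as their introns.

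The second question was where the bases lie that separate the alleles. The members held 23922 counted variants, 3667 in exons and 20255 in introns, so 84.7% were intronic. The median member had 81.5 variants, of which 16 were in exons and 61 in introns, and 80.6% of a member's variants were intronic in the median. This share was 22.2% in coding genes under 10 kb and 70.5% from 100 to 200 kb. Per kb, however, the members had 3.31 variants in exons and 0.24 in introns, against 3.42 and 0.57 in genes under 10 kb and 3.09 and 0.25 from 100 to 200 kb. Counted variants are those with enough reads, so these densities describe read coverage and strain differences together.

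Intron variants outnumbered exon variants in 144 members, exon variants were more numerous in 18 and both were equal in 4. The members with most exon variants were Dst with 185, Ttn with 159 and Prex2 with 97. In Ttn 159 of 161 variants were exonic, and in Macf1, a crosslinker of actin and microtubules with 48.7% exonic reads, only 1 of 54 was. No exon variant was counted in Myo3a, a and the 3 overlapping records of chromosome 18, so their allelic shares came from introns alone. The share of intron variants exceeded the share of reads outside exons in 128 of 166 members, and the exonic read share and intron variant share had a Spearman rho of -0.61, as a description across genes. The file gives 1 sum per allele, so reads at exon and intron variants could not be compared for the same gene. The bases that differed from the reference were mostly on the CAST chromosome, with a median of 4.58% of a member's variants on S129 and none in 54 members. In 17 members more than 30% were on S129, among them Stk3, the Hippo pathway kinase, with 100% and a with 94.4%.

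**Figure D3:**
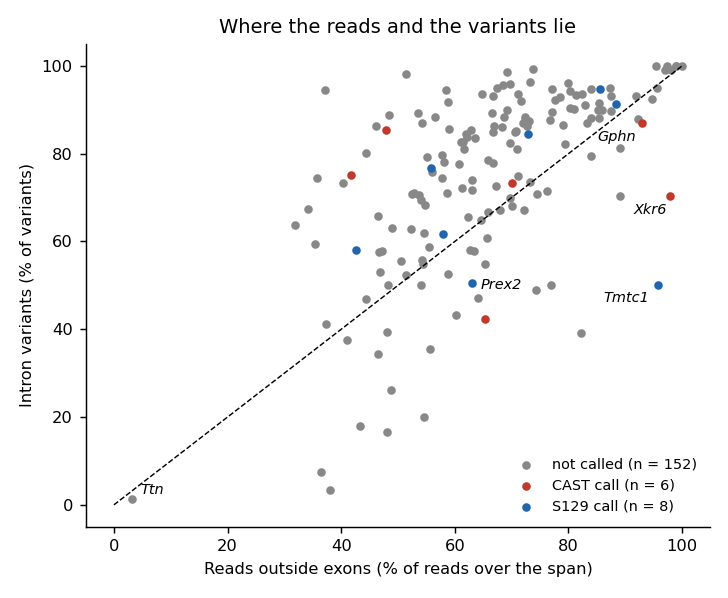
Percent of a member's counted variants that are intronic against the percent of its reads outside exons, for 166 members; gray points are members without an allele-specific call, red and blue points the CAST (6) and S129 (8) calls, and the dashed line marks equal percents. Points lie above the line in 128 members, and Ttn sits at the lower left with 1.24% intronic variants.

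The third question was whether the alleles were balanced. The members had 1708 allelic reads in the median, from 27 in Magi3 to 295934 in Myo3a, and a read that covers several variants enters the sum at each of them. The tests and intervals below take these counts as independent. In 4 members, Myo3a and the 3 overlapping records of chromosome 18, the allelic counts exceeded the reads themselves. The CAST share was 49.6% in the median, with quartiles of 45.9% and 54.3%, and 81 members lay above and 85 below equal shares. Between 40% and 60% CAST lay 138 of 166 members (83.1%), compared with 84.1% of 567 genes of 100 to 200 kb and 62.4% of 2978 genes under 10 kb. Over the summed reads the CAST share was 47.3%, and it was 49.8% without Myo3a.

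An exact two-sided binomial test against equal shares, with Benjamini-Hochberg adjustment over 18632 records, gave an adjusted p of at most 0.05 in 103 members, 49 with more CAST and 54 with more S129 reads. Most of these differences were small, and 89 of the 103 were under 2-fold. The count of 103 depends on read depth. It is given without the share over all records, so it describes no trait of long genes. Allele-specific expression (ASE) was called at an adjusted p of at most 0.05, a 2-fold difference and a TPM of at least 1. By this rule 14 of the 166 members (8.43%) were ASE records, compared with 14.1% of all 15935 records tested. Toward CAST 6 members were called, beside 8.33% of all records, and toward S129 8 members were called, beside 5.78% of all records. The share of ASE calls among coding genes was 18.3% under 10 kb, 12.2% from 10 to 30 kb, 8.48% from 30 to 100 kb and 6.17% from 100 to 200 kb. Among records with at least 1000 allelic reads it was 8.87% in 124 members, 5.29% in 359 genes of 100 to 200 kb and 15.4% in 648 genes under 10 kb. No test between these classes was made.

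**Figure D4:**
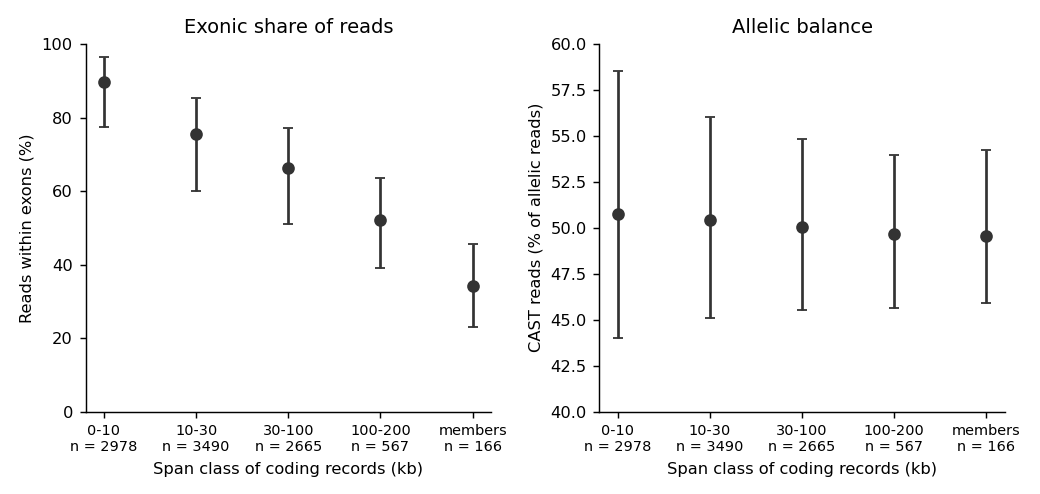
Median (point) and quartiles (bars) of the exonic share of reads (left, %) and of the CAST share of allelic reads (right, %, axis from 40 to 60) for coding records in 4 classes of span and for the 166 members. The exonic share falls from 89.6% to 34.2%, while the median CAST share stays between 49.6% and 50.7%.

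On the CAST side the largest difference was in Gphn (ENSMUSG00000047454, chr12:78226653-78684767, plus strand), which encodes gephyrin, the scaffold of inhibitory synapses and an enzyme of molybdenum cofactor synthesis. It had 2788 CAST and 250 S129 reads, or 91.8% CAST (95% exact interval 90.7 to 92.7%), an 11.2-fold difference with a log2 value of 3.48 ± 0.10 (counting SE) and an adjusted p of 0 to machine precision. Its reads lay at 4 exon and 27 intron variants, with 98 reads per variant, against a median of 19.4 over the members. Within 500 kb of Gphn 8 other expressed coding records had CAST shares of 41.3% to 58.5%. None of the 8 was an ASE record, beside 14.1% of all records tested. Sipa1l1, a GTPase-activating protein for Rap, had 3010 CAST and 1082 S129 reads (73.6%, log2 1.48, adjusted p = 3.9e-205 by the exact test). Xkr6 had 1040 and 408 reads (71.8%, log2 1.35). Pam, which amidates neuropeptides at their C-terminus, had 503 and 217 reads (69.9%, log2 1.21). Cachd1, a modulator of calcium channels, had 694 and 327 reads (68%, log2 1.09), and Baz2b, a bromodomain protein, had 1922 and 915 reads (67.7%, log2 1.07). Both Cachd1 and Baz2b were thus close to the 2-fold minimum, with folds of 2.12 and 2.10.

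On the S129 side Prex2 (ENSMUSG00000048960, chr1:10993465-11303681, plus strand), a guanine nucleotide exchange factor for Rac, had 525 CAST and 2805 S129 reads. This was 15.8% CAST (95% exact interval 14.5 to 17%), a 5.34-fold difference with a log2 value of -2.42 ± 0.07 and an adjusted p of 0 to machine precision. Its 97 exon and 99 intron variants made it the member with most exon variants among the ASE calls. Ncoa1, a coactivator of nuclear receptors, had 200 and 457 reads (30.4%, log2 -1.19), and Pitpnc1, a phosphatidylinositol transfer protein, had 1131 and 2562 reads (30.6%, log2 -1.18). Arl15, an ARF-like GTPase, Cobl, an actin nucleator, and Utrn, the dystrophin homolog utrophin, had CAST shares of 32.1%, 32.3% and 32.5% from 2949, 4211 and 4275 reads. Tmtc1, an O-mannosyltransferase of the endoplasmic reticulum, was called from 11 CAST and 27 S129 reads at 2 variants (28.9%, interval 15.4 to 45.9%, adjusted p = 0.031 by the exact test), although 7234 reads lay over its span.

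Several of these genes had a second record for a noncoding isoform. It was also an ASE record on the same allele in Pitpnc1 (32.4% CAST of 367 reads), Xkr6 (78.6% of 103) and Cachd1 (76.2% of 42). It was not in Baz2b (51.8% of 112 reads), Pam (40.8% of 49) or Sipa1l1, where the noncoding record leaned to S129 with 37.6% CAST of 210 reads, opposite to the coding record. Records of 1 gene can share variants and reads, so these are not independent. Within 500 kb of the 14 ASE members 67 other expressed coding records had at least 20 allelic reads. Of these 30 leaned to the same allele as the member (44.8%), 6 were ASE records and 2, both beside Ncoa1, were ASE records on the same allele. Over all records tested 14.1% were ASE records, and no test between the neighbours and all records was made.

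**Figure D5:**
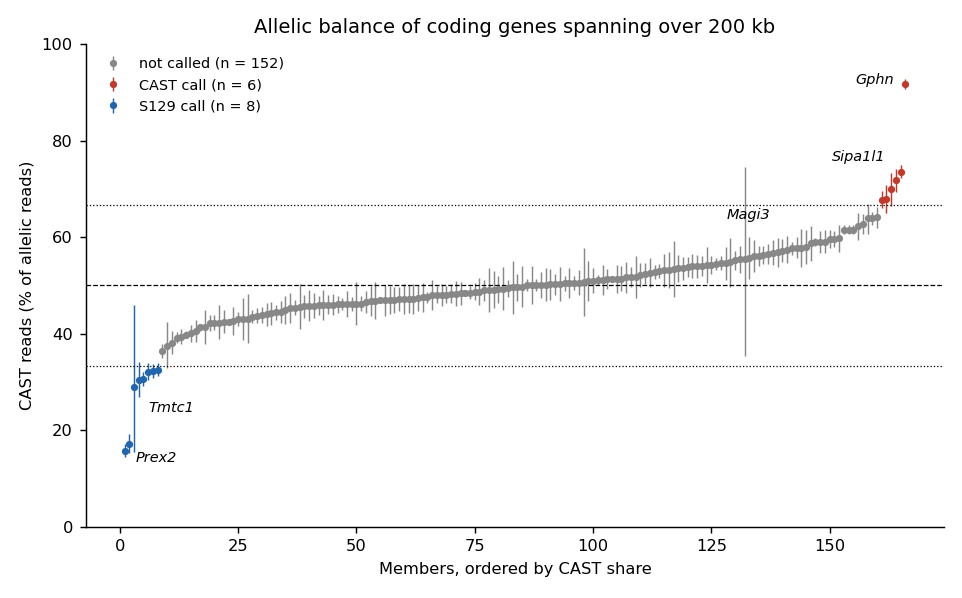
Percent of allelic reads from the CAST allele for the 166 members in order of that percent, with exact 95% intervals for counting error; red and blue points are CAST (6) and S129 (8) calls, the dashed line is equal shares and the dotted lines mark 2-fold differences. Gphn lies alone at 91.8%, Prex2 is lowest at 15.8%, and the widest intervals are those of Magi3 and Tmtc1.

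Outside the calls, 14 members differed by 1.5-fold to 2-fold. Toward S129 these were Prim2, the large subunit of the primase, at 36.3% CAST, followed by Iqsec1 (37.5%), Phkb (38.1%), Ap3b1 (39.2%), Mcph1 (39.4%) and Exoc4 (39.8%). Toward CAST they were Stk3 (64.1%), Prkdc (63.9%), the calcium channel subunit Cacna1a (63.9%), Rims2 (62.8%), Uvrag (62.3%) and the 3 overlapping records of chromosome 18 (61.6%). None of their exact 95% intervals for counting error reached equal shares. Exoc4, a subunit of the exocyst, had 7061 CAST and 10696 S129 reads at 57 exon and 845 intron variants, and its interval was 39 to 40.5%.

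By function, 23 members were cytoskeletal linkers, polarity proteins or regulators of Rac and related GTPases. Their CAST shares ranged from 32.3% to 59.1% with a median of 50.5%, beside 50.1% over all records tested. Of the 23, 2 (Cobl and Utrn) were called, both toward S129. For this and the following lists, 14.1% of all records tested were called, and 14 of the 166 members. The lists are small, and their numbers of calls were not compared. The median exonic share of the 23 was 41.2%. Tns3, a focal adhesion protein, and Tanc1, a postsynaptic scaffold, had 53.9% and 55.6% exonic reads and CAST shares of 51% and 50.1%. Epb41l4a, a band 4.1 protein, had 41.2% exonic reads and 50.5% CAST. Dst leaned to S129 with 41.3% CAST from 17239 reads, below 2-fold.

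Of the 17 transcription factors, co-factors and chromatin proteins, Baz2b was called toward CAST and Ncoa1 toward S129. The median CAST share was 48.5% and the median exonic share 35.4%. Tead1, which acts with the Hippo effector YAP, had 47.6% CAST of 7613 reads. Bnc2 had 48.5% of 5741 reads and Trps1, a GATA-type repressor, 43.5% of 5350 reads. Of 13 receptors, kinases, phosphatases and second messenger enzymes only Pitpnc1 was called, beside 14.1% of all records tested. Itpr1, the calcium release channel of the endoplasmic reticulum, had 57.7% CAST and 44.9% exonic reads, and Gnaq, a G protein alpha subunit, 48.3% and 18.7%.

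None of 13 genes of membrane traffic, ubiquitin and protein turnover and none of 4 RNA-binding proteins was called. Over all records tested 14.1% were called, and these lists are too small to read the absence of calls as a result. Their median CAST shares were 47.1% and 48.5%. Ap3b1, a subunit of the AP-3 adaptor, had 62.8% exonic reads and 39.2% CAST. Cog5, of the Golgi tethering complex, had 44.5% CAST with 16.1% exonic reads, and Wdfy3, an adaptor of selective autophagy, 46% with 45.9%. The RNA-binding group was Smg6, an endonuclease of nonsense-mediated decay, Tnrc6b, a partner of Argonaute, Rbms1 and the splicing factor Rbfox2, with CAST shares of 57.4%, 46.7%, 50.2% and 46.2%. Their median exonic share, 51.3%, was the highest of the 7 lists, and their median span, 226 kb, was the shortest.

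The 8 cell adhesion, axon guidance and synaptic proteins had a median CAST share of 54.2% and a median exonic share of 24.3%. Gphn was the only call, beside 14.1% of all records tested. The teneurin Tenm4, a transmembrane protein of synapses, had 59% CAST of 14679 reads, the receptor phosphatases Ptprg and Ptprk had 54.5% and 46.1%, and Dlg1, a scaffold of cell junctions, had 50.2%. The 4 members known from common fragile sites had the lowest median exonic share of the lists, 10.8%. They also had the longest median span, 528 kb, and the part of span in this ranking was not tested. Among them Exoc4, Gphn and Rad51b had CAST shares of 39.8%, 91.8% and 46.1%. The remaining 86 members were in no list and had a median CAST share of 49.5%, 4 calls toward CAST and 4 toward S129.

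The most highly expressed members after Myo3a were Etl4, a (above), Macf1 and Ap3b1. Etl4, also called Skt, a gene of intervertebral disc development, had a TPM of 9.86 from 30771 reads, 30.2% of them exonic. With 1294 variants it had 445 per 100 kb, the most of all members, and its CAST share was 48.5% from 28240 reads. Macf1 had a TPM of 5.92 and 51.2% CAST from 999 reads.

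Values at the limits of the rule were as follows. Pbx3 and Cmip had the shortest spans inside, 200.3 and 202 kb, with CAST shares of 50.7% and 52.4%, and Pcbp3 and Atp9b the longest outside, 199.9 and 199.7 kb, with 70.8% and 43.6%. Babam2 and App were just inside the TPM minimum at 1.001 and 1.004, with 46.9% and 56.9%, while Cux1 (TPM 0.998) and Pcca (0.986) were just outside with 44.6% and 67.4%. Magi3 and Tmtc1, with 27 and 38 allelic reads, had the fewest, and Sgms1 had no variant. Of the 6 genes left out by name only Camk1d was an ASE record, with 87.3% CAST of 5064 reads.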

How the data were processed

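F123 mESC total RNA-seq (2 replicates) was mapped by the authors to mm10 with STAR (version 2.7.2c), and duplicates were removed with Picard. The deposited allelic counts are reads at heterozygous exon and intron variants (GATK ASEReadCounter), summed by the authors per gene. The columns name no replicate and were taken as pooled over both. The deposited TPM values were made by the authors from HTSeq counts, scaled by length and library size; the strand setting of the counting is not given in the sources used here. The numbers of variants and the spans come from the same deposited table. The authors' own fold changes, p-values, ratios and classes were not used.

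Reads were recovered as TPM times span over the smallest step of each column (93.1 and 114). Exon lengths and nested genes came from GENCODE M21 (GRCm38), and promoter windows from RefSeq. CAST and S129 reads were compared per record by two-sided exact binomial tests with Benjamini-Hochberg adjustment over all records, without added reads. Intervals are exact (Clopper-Pearson, 95%). The script that makes the calls was tested on simulated data with seeded 4-fold differences. A planned comparison of exon with intron variants of the same gene was not made, because the counts are not split. Members and gene lists were chosen with earlier results of these data known. Named are all ASE members, the 8 longest, the 5 highest and 5 lowest TPM ratios, the 5 highest TPM, up to 4 members per list with most allelic reads, and 2 records on either side of each limit; other genes were picked with their values in view, and some members are counted but not reported by name here. Alternatives changed thresholds, null share, spread and membership. Scripts ran in Python (3.11.15) with scipy (1.17.1) and pandas (2.3.3), and pseudogenes were aligned with BLAST (2.17.0).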

Additional observations from a re-analysis of the deposited data

How the results depend on the processing

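The number of ASE members was 14 of 166 and lay between 13 and 19 under 8 alternatives, not all with the same members. It was 13 of 164 with a minimum of 100 allelic reads, 19 of 300 with a span of 150 kb and 15 of 172 with no names left out. For the 166 members it was 14 with the overall CAST share as null. A beta-binomial spread with rho 0.01 and an adjusted p of 0.01 each gave 13. Over all records tested, these settings for the 166 members called 14.1%, 12.1% and 12.8%. The count was 28 of 166 with a 1.5-fold minimum, beside 25.8% of all records tested. It was 3 with a 3-fold minimum and 3 with a beta-binomial spread of rho 0.05, beside 7.42% and 3.06%. Gphn and Prex2 kept their call under both of the last settings, and Tmtc1 lost it with rho 0.01 and with an adjusted p of 0.01. With other members and the same calling rule, the count was 9 of 101 members with no other expressed gene in their span. It was 5 of 58 spanning 300 kb or more and 0 of 7 with a TPM of 5 or more, beside 14.1% of all records tested. With no TPM minimum for either the members or the call, it was 81 of 423. The share over all records was not computed at that setting.

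The median CAST share stayed between 49.4% and 50.3% except with a TPM of at least 5 (43.7%, 7 members). The median ratio of TPM over exons to TPM over the transcript, 0.42, became 0.65 with a pseudocount of 1, 0.48 from 150 kb, 0.32 from 300 kb, 0.34 with no TPM minimum and 0.59 with a TPM of at least 5. The median intron share of variants, 80.6%, became 88% from 300 kb and 95.9% with a TPM of at least 5. Leaving out 8 records that run across many genes or hold few exonic reads, an alternative chosen after seeing the data, gave 13 ASE members, 49.6% CAST, a ratio of 0.43 and 79.3% intron variants. The causes were not tested. Depth was high for most members, while Magi3 and Tmtc1 rest on 27 and 38 allelic reads. No replicate could be left out, since no column names one. No paired analysis was possible because the columns carry no replicate numbers and there is 1 group.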

Other observations

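The numbers of expressed coding genes of at least 200 kb are given by functional list. Of all 792 coding records of that span, 173 reached a TPM of 1, a limit that the rule for the members also used. Of 89 genes of cell adhesion, axon guidance and synapses, 8 reached a TPM of 1 over the transcript. The count was 23 of 56 for cytoskeletal linkers, polarity proteins and regulators of Rac and related GTPases, 17 of 55 for transcription factors, co-factors and chromatin proteins, 13 of 55 for receptors, kinases and second messenger enzymes, 13 of 30 for membrane traffic and protein turnover, 4 of 11 for RNA-binding proteins and 4 of 23 for genes known from common fragile sites. These counts describe the table, since the lists were written with earlier results known and no test was made. Annotated pseudogenes lay inside 71 of the 166 members, 136 in all, and annotated miRNA genes inside 35, with 45 in all.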
